A study of Mus musculus with 36 samples.

Results

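Replication-dependent histone genes encode the H1, H2A, H2B, H3 and H4 proteins that package newly copied DNA. In the mouse arrays described here, 26 such genes could be read on their own, of 19938 genes tested. They were found by symbol alone. A row of the array counted as a member when the platform annotation gave it exactly 1 gene symbol, and that symbol was H1f1 to H1f5, or H2ac, H2bc, H3c or H4c followed by a number. The members were 4 genes of H1 (*H1f1*, *H1f2*, *H1f3*, *H1f5*), 4 of H2A (*H2ac1*, *H2ac4*, *H2ac8*, *H2ac15*), 9 of H2B (*H2bc1*, *H2bc3*, *H2bc4*, *H2bc8*, *H2bc9*, *H2bc14*, *H2bc18*, *H2bc21*, *H2bc22*), 3 of H3 (*H3c4*, *H3c7*, *H3c15*) and 6 of H4 (*H4c3*, *H4c4*, *H4c6*, *H4c8*, *H4c9*, *H4c14*). RefSeq holds 62 mouse protein-coding genes whose symbols follow the same pattern, of which the 26 members are those with a row of their own in the annotation used.

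The study asked how dendritic cells (DCs) that carry thrombomodulin (TM) on their surface differ from those that do not, and whether soluble TM (sTM) changes them. Bone marrow of Balb/c mice was cultured in GM-CSF (100 ng/ml), a growth factor that drives them towards DCs, and taken on day 6. Treated cultures had 200 nM sTM, the part of the receptor outside the cell, from day 4, and untreated cultures had none. Anti-TM antibody with magnetic beads separated TM+ from TM- DCs before RNA was put on 36 Affymetrix Mouse Gene 1.0 ST arrays in 4 experiments. Sorted DCs from sTM-treated cultures gave 6 TM+ and 6 TM- arrays, 2 of each in experiments 2, 3 and 4, and sorted DCs from untreated cultures gave 4 TM+ and 4 TM- arrays, 2 of each in experiments 3 and 4. Unsorted DCs gave 8 arrays of sTM-treated and 8 of untreated cultures in experiments 1, 2 and 3. Arrays of 1 group within 1 experiment are labelled as biological replicates, but the sources used here do not say if they came from separate mice or dishes. Each p-value counts these arrays as separate readings. The spread behind it mixes that between arrays with that of the differences between experiments.

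Most histone mRNAs of this kind are made in S phase, when DNA is copied, and are cleared when copying stops. They end in a stem-loop in place of a poly(A) tail. Stem-loop binding protein (*Slbp*) holds that end, and *Npat* switches the genes on at histone locus bodies. In human cells some of them, among them the relatives of *H1f2*, *H2bc4* and *H2bc21*, can also be made as poly(A) transcripts in cells that have stopped dividing. In bulk arrays such as these, fewer cells in S phase and less histone mRNA per cell cannot be told apart. By flow cytometry the study found a larger share of S phase cells in TM+ than in TM- DCs of sTM-treated cultures. That share was measured after a day in culture, while cells for the arrays were separated on day 6. The part of that share in the histone values was not tested here.

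On chromosome 13 the annotation places 22 members, and on chromosome 3 the other 4. In the RefSeq annotation of GRCm38.p6, 23 members span 375 to 903 bases, while *H2bc21*, *H2bc4* and *H2bc22* span 2667, 8282 and 14079 bases. The stretch of 150 bases before the start of 5 members, as RefSeq gives it on GRCm38.p6, is printed because these genes lead their classes or stand out from them: *H1f5*, *H2ac4*, *H2bc3* and *H4c6* had the largest TM+ to TM- difference of their class, and *H1f2* the smallest of the H1 genes. *H3c15*, which had the largest difference of the H3 genes, is not printed. Capitals mark 4 short motifs on either strand: the octamer ATTTGCAT known from H2B promoters, the TATA box TATAAA, the CCAAT box CCAAT and the H1 box AAACACA.
H1f5, chr13:21780626-21780775, minus strand: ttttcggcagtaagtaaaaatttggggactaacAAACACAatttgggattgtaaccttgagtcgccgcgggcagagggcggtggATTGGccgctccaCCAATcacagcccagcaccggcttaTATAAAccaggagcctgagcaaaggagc
H1f2, chr13:23738657-23738806, plus strand: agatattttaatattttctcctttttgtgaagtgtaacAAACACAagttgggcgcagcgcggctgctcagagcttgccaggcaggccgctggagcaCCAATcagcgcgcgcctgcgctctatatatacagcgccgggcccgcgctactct
H2ac4, chr13:23750938-23751087, plus strand: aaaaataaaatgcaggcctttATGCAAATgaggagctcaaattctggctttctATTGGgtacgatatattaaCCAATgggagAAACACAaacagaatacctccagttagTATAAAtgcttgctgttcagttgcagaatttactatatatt
H2bc3, chr13:23746584-23746733, plus strand: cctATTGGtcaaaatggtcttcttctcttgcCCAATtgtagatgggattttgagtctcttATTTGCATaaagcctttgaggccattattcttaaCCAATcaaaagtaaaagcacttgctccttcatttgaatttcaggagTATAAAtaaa
H4c6, chr13:23551669-23551818, minus strand: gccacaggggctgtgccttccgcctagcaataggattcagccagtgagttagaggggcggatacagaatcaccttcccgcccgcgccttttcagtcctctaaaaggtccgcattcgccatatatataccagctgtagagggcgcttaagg

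The search ran over the 250 bases before the start of the 22 members with a promoter entry. The octamer was found before 8 of 22 members (36.4%), all of them H2A or H2B genes, against 1.61% of all 27025 mouse promoters. These 8 members share 6 octamer sites, because *H2ac8* with *H2bc8* and *H2ac1* with *H2bc1* are read in opposite directions from 1 common stretch. The TATA box was found before 14 of 22 members (63.6%, against 13% of all promoters), the CCAAT box before 18 (81.8%, against 34.5%) and the H1 box before 7 (31.8%, against 6.22%). *H1f5* and *H1f2* both hold the H1 box, 117 to 111 and 112 to 106 bases before the start, and both hold a CCAAT box nearby, 53 to 49 and 54 to 50 bases before it, although their TM+ to TM- differences lay far apart. A match of letters is a description of the sequence and not evidence that a factor binds it. *H3c15* and *H4c8* have an entry but hold none of these motifs, and *H2bc4*, *H2bc21*, *H3c7* and *H4c14* have no entry.

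The deposited values are log2-transformed here, and a difference of 1 on that scale is a doubling. Array medians over all genes lay between 6.60 and 6.81 log2. The DC label was checked against 16 DC genes. Integrin alpha X (*Itgax*, CD11c) averaged 12.02 and the MHC class II chain *H2-Aa* 12.10 log2 over the 36 arrays, while *Flt3*, *Zbtb46* and *Ciita* of the same list averaged 6.37, 7.31 and 7.58 log2. Of the 16 genes 8 were called higher in TM+ DCs and 6 in TM- DCs (limma, adjusted p under 0.05), where 18.6% and 18.7% of all genes were. Granulocyte genes were also read, and of the 15 listed *Lcn2* averaged 13.18 and *Mmp8* 12.72 log2. In unsorted DCs with sTM the median summed intensity was 25300 for the 15 granulocyte genes and 47400 for the 16 DC genes. Without sTM the medians were 24200 and 49800. *Thbd*, which encodes the antigen used for sorting, averaged 6.10 ± 0.15 in TM+ and 6.04 ± 0.27 in TM- DCs of sTM-treated cultures (SD, n = 6 each), and 6.29 ± 0.58 in TM+ and 5.88 ± 0.18 in TM- DCs of untreated cultures (SD, n = 4 each). Its difference of 0.24 (SE 0.12) had an adjusted p of 0.12 in limma's moderated test, and it was not called.

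Histone genes of every class were higher in TM+ than in TM- DCs. In the mean of untreated and sTM-treated cultures, 22 of the 26 members were called higher in TM+ DCs at an adjusted p under 0.05 (limma, Benjamini-Hochberg over 19938 genes), where 18.6% of all genes were called higher. One member, *H2bc4*, was called lower, where 18.7% of all genes were called lower, and *H1f2*, *H3c7* and *H4c9* were not called. The median difference was 1.00 log2 over the members and -0.08 over all genes. By class, the median was 1.41 for H1 (3 of 4 called higher), 1.40 for H2A (4 of 4), 1.06 for H2B (8 of 9), 0.88 for H3 (2 of 3) and 1.02 for H4 (5 of 6).

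In 8 of the 26 members all 10 TM+ arrays lay above all 10 TM- arrays, and in 0 members did all TM+ arrays lie below. Over all genes the shares were 2.20% and 0.973%. The 8 members were *H1f3*, *H1f5*, *H2ac4*, *H2bc14*, *H3c4*, *H4c6*, *H4c8* and *H4c14*. The mean of the TM+ arrays was above that of the TM- arrays in all 5 combinations of experiment and treatment for 21 members, against 13.1% of all genes.

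H1 proteins bind the DNA between nucleosomes. *H1f5* had the largest difference of the class. Its lowest, median and highest values were 9.34, 10.77 and 11.25 log2 in TM+ DCs of sTM-treated cultures and 7.80, 8.21 and 8.89 log2 in TM- DCs of the same cultures. In untreated cultures it read 9.34, 9.47, 11.19 and 11.29 log2 in the 4 TM+ arrays and 8.10, 8.10, 8.22 and 8.81 log2 in the 4 TM- arrays. The 2 fractions did not overlap in either kind of culture, and the difference was 2.10 (SE 0.18, adjusted p = 2.13e-08, limma), or 4.28-fold. *H1f1* followed with 1.87 (SE 0.20, adjusted p = 3.55e-07, limma), and *H1f3* with 0.94 (SE 0.14, adjusted p = 2.5e-05, limma).

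*H1f2*, the H1 gene with the highest mean on the arrays, behaved otherwise. With sTM it read 10.99 and 10.99 in experiment 2, 11.79 and 11.68 in experiment 3, and 11.06 and 10.99 in experiment 4 in TM+ DCs. The TM- DCs of those cultures read 9.59 and 9.68, then 11.97 and 11.23, then 11.28 and 11.27. The TM+ arrays were thus higher in experiment 2 only, and in experiments 3 and 4 the fractions overlapped or the TM- arrays were the higher ones. In untreated cultures *H1f2* read 11.17 and 11.26 in experiment 3 and 10.60 and 10.64 in experiment 4 in TM+ DCs, against 11.45 and 11.41 and then 10.17 and 10.29 in TM- DCs. The difference was 0.25 (SE 0.18, adjusted p = 0.274, limma), and TM+ was above TM- in 5 of 10 pairs of arrays with the same label number.

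H2A and H2B form the dimers that flank the core of the nucleosome. The largest difference of all members was that of the H2A gene *H2ac4*. It read 7.06, 7.70 and 10.07 (lowest, median and highest) in TM+ DCs with sTM, against 5.0, 5.62 and 6.32 in TM- DCs with sTM. In untreated cultures the TM+ arrays read 6.36, 6.53, 9.82 and 10.01, and the TM- arrays 4.49, 5.18, 5.31 and 6.29. Every TM+ array was above every TM- array, and the 4 highest values were the 4 TM+ arrays of experiment 4. The difference was 2.74 (SE 0.31, adjusted p = 6.1e-07, limma), or 6.68-fold.

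*H2ac15* had the highest mean of the H2A genes. With sTM it read 10.54 and 10.04 in experiment 2, 11.55 and 11.60 in experiment 3, and 12.27 and 12.31 in experiment 4 in TM+ DCs, against 8.98 and 9.09, 9.44 and 9.44, and 10.26 and 10.16 in TM- DCs. In untreated cultures it read 11.51 and 11.64 in experiment 3 and 12.27 and 12.31 in experiment 4 in TM+ DCs, against 9.54 and 9.72 and then 9.27 and 10.09 in TM- DCs. Within each experiment the TM+ arrays were the higher ones, with a difference of 2.05 (SE 0.17, adjusted p = 7.34e-09, limma). *H2ac1*, whose product is the H2A of testis, differed by 0.74. *H2ac8* had the lowest difference of the class, 0.60 (SE 0.16, adjusted p = 0.00578, limma), with TM+ values of 4.01 to 5.55 and TM- values of 3.74 to 4.83 that overlapped. Without experiment 4 its difference was 0.19 and was not called (adjusted p = 0.586, limma). *H2ac8*, *H3c7* and *H3c15* were the members below the 25th percentile of mean level, and low values were not separated from background here.

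Among the H2B genes *H2bc3* differed most. It read 8.22, 9.16 and 11.78 in TM+ DCs with sTM and 6.91, 7.11 and 9.56 in TM- DCs with sTM (lowest, median and highest). In untreated cultures it read 9.08, 9.28, 11.64 and 12.02 in TM+ DCs and 7.27, 7.58, 8.70 and 9.41 in TM- DCs. The ranges of the fractions overlapped only across experiments, since both fractions were higher in experiment 4, and the difference was 2.12 (SE 0.26, adjusted p = 2.08e-06, limma). Of the other H2B members, *H2bc14* had a difference of 1.77 (SE 0.13, adjusted p = 2.91e-09, limma), and *H2bc8*, *H2bc9* and *H2bc18* had 1.13, 1.06 and 1.48. The differences of *H2bc1*, the H2B of testis, of *H2bc21* and of *H2bc22* were smaller, at 0.69, 0.69 and 0.29.

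*H2bc4* was the one member called lower in TM+ DCs, and it had the highest mean of the H2B genes. In untreated cultures it read 9.84 and 10.02 in experiment 3 and 9.78 and 10.02 in experiment 4 in TM+ DCs, against 10.41 and 10.42 and then 11.19 and 11.12 in TM- DCs. With sTM it read 10.02 and 10.45, 10.94 and 11.03, and 11.32 and 11.26 in TM+ DCs of experiments 2, 3 and 4, against 10.63 and 11.01, 11.04 and 9.89, and 11.29 and 11.35 in TM- DCs. The fractions were apart in untreated cultures and overlapped in treated ones. The difference was -0.87 (SE 0.23, adjusted p = 0.0102, limma) in untreated cultures, -0.03 (SE 0.19, adjusted p = 0.908) in treated cultures, and -0.45 (SE 0.15, adjusted p = 0.0246) in their mean. The call in untreated cultures was lost without experiment 4 (-0.48, adjusted p = 0.781, limma) and with no term for experiment (adjusted p = 0.0669). The call in the mean was lost with no term for experiment (adjusted p = 0.0964, limma). It was also lost without experiment 2 (-0.31, adjusted p = 0.127, limma) and without experiment 4 (-0.26, adjusted p = 0.595), and without any 1 of 3 arrays of untreated DCs of experiment 4 (TM+ array 1, TM- array 1 and TM- array 2, adjusted p = 0.0678, 0.0593 and 0.0537).

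H3 and H4 form the center of the nucleosome. *H3c4*, with the highest mean of the 3 H3 genes, read 7.24 and 7.0, 7.04 and 7.53, and 7.48 and 7.42 in TM+ DCs with sTM in experiments 2, 3 and 4. The TM- DCs of those cultures read 6.20 and 6.43, 6.53 and 6.82, and 6.50 and 6.61. In untreated cultures *H3c4* read 6.88 and 6.89 in experiment 3 and 8.03 and 8.16 in experiment 4 in TM+ DCs, against 6.48 and 6.48 and then 6.41 and 6.64 in TM- DCs. No TM- array reached the lowest TM+ array, and the difference was 0.88 (SE 0.13, adjusted p = 1.42e-05, limma). *H3c15* had the largest difference of the class, 1.23 (SE 0.21, adjusted p = 7.73e-05, limma), with 4.86 to 6.81 log2 in TM+ and 4.25 to 5.02 log2 in TM- arrays. *H3c7* read 4.30 to 5.32 in TM+ and 4.39 to 5.48 in TM- arrays, and its difference of 0.21 (SE 0.11) had an adjusted p of 0.135 (limma).

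*H4c4* had the highest mean of the H4 genes. In TM+ DCs with sTM it read 11.78 and 11.37 in experiment 2, 13.22 and 13.03 in experiment 3, and 13.71 and 13.52 in experiment 4, against 11.12 and 10.67, 12.55 and 12.87, and 12.30 and 12.28 in TM- DCs. In untreated cultures it read 13.35 and 13.44 and then 13.58 and 13.61 in TM+ DCs of experiments 3 and 4, against 12.39 and 12.48 and then 11.57 and 11.94 in TM- DCs. Within each experiment TM+ was above TM-, while the level in both fractions was lowest in experiment 2. The difference was 1.10 (SE 0.19, adjusted p = 9.12e-05, limma).

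*H4c6* differed most among the H4 genes. It read 9.79, 10.28 and 11.20 in TM+ and 8.95, 9.15 and 9.39 in TM- DCs with sTM (lowest, median and highest), and 9.74, 10.06, 10.95 and 11.21 in TM+ and 8.42, 8.59, 9.0 and 9.12 in TM- DCs of untreated cultures. No arrays overlapped, and the difference was 1.49 (SE 0.15, adjusted p = 1.44e-07, limma). *H4c14* and *H4c8* also had all TM+ arrays above all TM- arrays, with differences of 1.15 and 0.83, and *H4c3* differed by 0.93. *H4c9* read 7.23 to 9.60 in TM+ and 6.98 to 8.58 in TM- arrays, with overlap, and its difference of 0.31 (SE 0.17) had an adjusted p of 0.146 (limma).

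**Figure D1:**
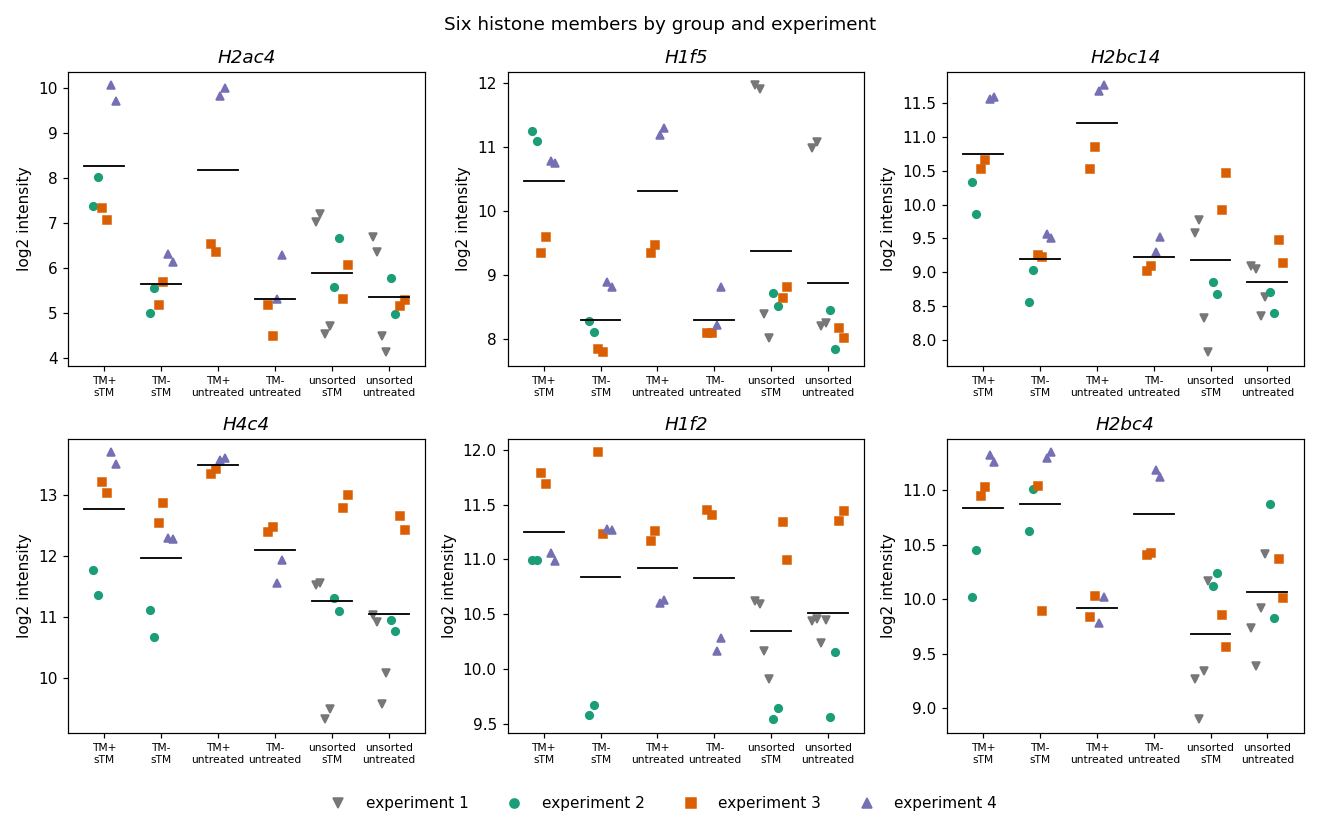
Log2 intensity (y axis) of 6 members in each array, by group (x axis) and experiment (symbol), with group means as bars. *H2ac4*, *H1f5* and *H2bc14* have every TM+ array above every TM- array, *H4c4* does within each experiment, *H1f2* overlaps, and *H2bc4* is low in the 4 TM+ arrays of untreated cultures, at 9.78 to 10.02.

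Some neighbors on the chromosome, meaning members with no other member between them, differed widely. Along chromosome 13 *H1f2* (0.25) is followed among the members by *H2bc3* (2.12), *H2ac4* (2.74) and *H1f1* (1.87), and *H1f5* (2.10) lies next to *H2bc22* (0.29). *H2bc9* (1.06) and *H3c7* (0.21) are neighbors as well. The pairs that share a promoter stretch were closer in one case than in the other, with *H2ac1* at 0.74 and *H2bc1* at 0.69, and *H2ac8* at 0.60 and *H2bc8* at 1.13. The 3 members with an annotated span over 1 kb, *H2bc4*, *H2bc22* and *H2bc21*, had differences of -0.45, 0.29 and 0.69, all below the members' median of 1.00.

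A further 26 array rows name several histone genes at once. All 26 were called higher in TM+ DCs, where 18.6% of all genes were, by 0.52 to 1.81 log2 with a median of 1.38. The 10 rows of H3 genes had a median of 1.70 (1.65 to 1.81), the 7 rows of H2B genes 1.35 (1.21 to 1.45) and the 6 rows of H4 genes 1.02 (0.97 to 1.05). The single-gene members can take up signal from near-identical copies too, since histone genes of one class share most of their coding sequence, so a value for 1 member is uncertain as a value for that gene alone. The 26 rows of several genes are not independent readings, because rows of one class name largely the same genes. The 10 H3 rows, for example, all name the same 12 symbols. Among the 26 rows 4 held values identical to those of another row.

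Both kinds of culture showed the difference. In untreated cultures 21 of 26 members were called higher in TM+ DCs and 1 (*H2bc4*) lower, where 13.2% and 7.93% of all genes were, and the median difference was 1.14. In sTM-treated cultures 21 were higher and 0 lower, where 11.6% and 12.4% of all genes were, and the median difference was 0.89. At an unadjusted p under 0.05, 22 members differed in treated cultures, as did 7824 of all 19938 genes. Without experiment 4, which leaves 2 arrays of each fraction in untreated cultures, 11 members were called higher there, where 3.78% of all genes were.

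The size of the difference followed the experiment. In sTM-treated cultures the members' median was 0.91 in experiment 2, 0.55 in experiment 3 and 1.32 in experiment 4, and in untreated cultures it was 0.72 in experiment 3 and 1.53 in experiment 4. Between 23 and 25 of the 26 members were above 0 in each of the 5 combinations. *H2ac4* differed by 3.67 with sTM and 4.12 without in experiment 4, against 1.76 and 1.61 in experiment 3. Among the H1 genes, *H1f2*, *H1f3* and *H1f5* had their largest difference in treated cultures in experiment 2 instead, and that of *H1f5* was 2.97 there, 1.65 in experiment 3 and 1.92 in experiment 4. The difference between experiments was not tested.

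**Figure D2:**
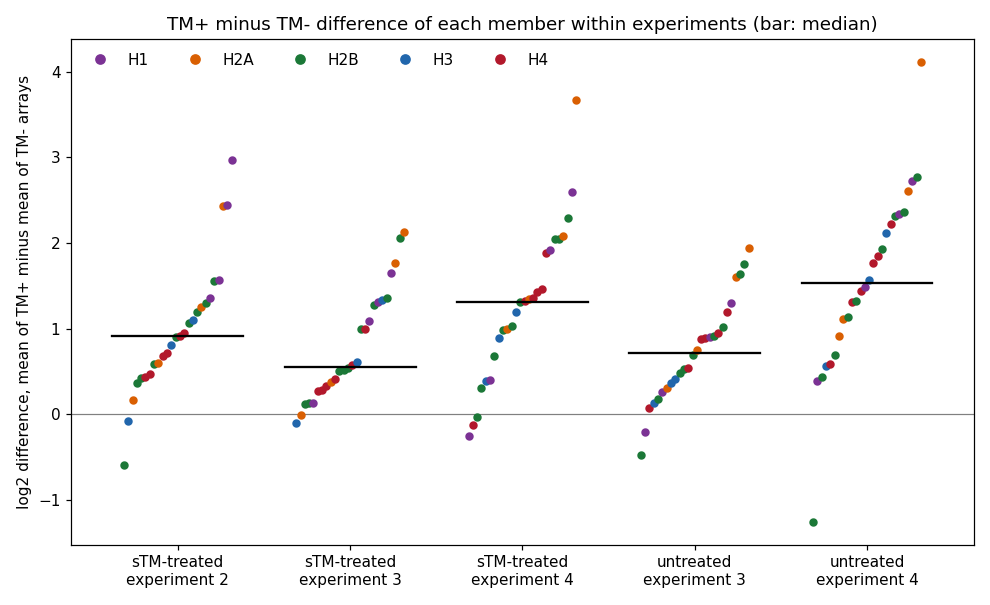
Log2 difference of the mean of TM+ minus the mean of TM- arrays (y axis) for each member within each experiment and treatment (x axis), colored by class, with the median as a bar. The medians run from 0.55 in treated cultures of experiment 3 to 1.53 in untreated cultures of experiment 4.

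Counted over the members within each array, the median deviation from the gene's own mean was 0.22 to 1.40 log2 in the 10 TM+ arrays and -0.48 to -0.05 in the 10 TM- arrays. The 4 TM+ arrays of experiment 4 were the highest, at 1.18, 1.26, 1.30 and 1.40.

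**Figure D3:**
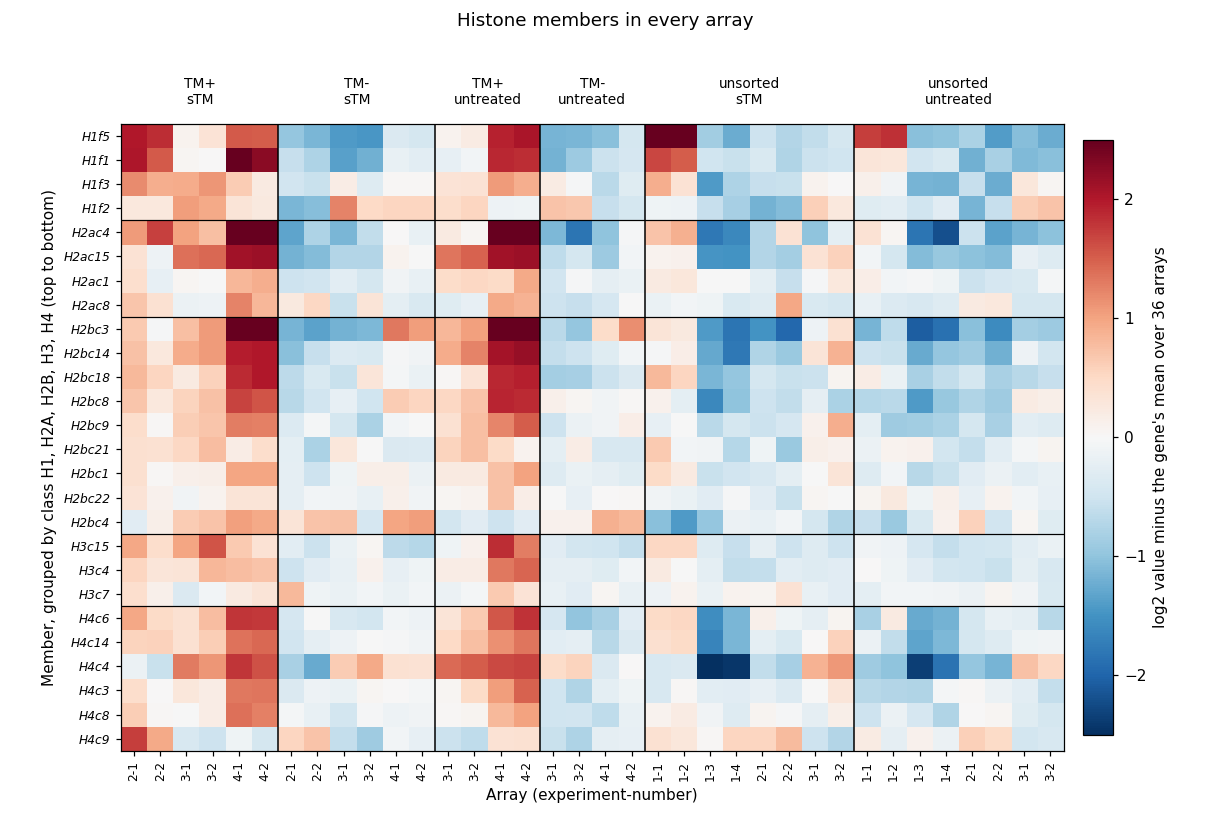
Log2 value of each member minus its mean over 36 arrays (color, with values beyond 2.5 drawn at the ends of the scale), with members as rows by class and arrays as columns by group and experiment number. Most rows are red in TM+ and blue in TM- arrays, most strongly in experiment 4, and the rows of *H1f2* and *H2bc4* break this pattern.

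Genes that work with these histones moved with them to different degrees. Of 37 measured genes of S phase and DNA replication, 36 were called higher in TM+ DCs and 0 lower, with a median of 1.19, against the background of 18.6% higher and 18.7% lower given above. Cyclin A (*Ccna2*) rose by 3.65 (SE 0.23), the ribonucleotide reductase subunit *Rrm2* by 2.61 (SE 0.17), the DNA polymerase subunit *Pole* by 2.40 (SE 0.19) and the replicative helicase subunit *Mcm6* by 2.14 (SE 0.26), with adjusted p of 1.5e-06 or less in limma. Within experiments the median of the S phase genes was 0.84, 0.78 and 1.44 in treated cultures of experiments 2, 3 and 4 and 0.75 and 1.83 in untreated cultures of experiments 3 and 4, so that it too was highest in experiment 4.

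Of 19 measured genes that transcribe histone genes or cut and hold the histone mRNA end, 12 were called higher and 1 lower in TM+ DCs, with a median of 0.52. *Slbp* rose by 0.70 (SE 0.13, adjusted p = 0.00029, limma). The nuclease *Cpsf3* rose by 0.89, the Sm protein *Snrpb* by 0.79 and *Casp8ap2*, a protein of histone locus bodies, by 0.70. *Npat* had a difference of 0.36 (SE 0.15, adjusted p = 0.071, limma) and was not called. *Lsm10*, a protein of the U7 particle that directs the cut, was the gene called lower, by 0.24 log2 (named after its value was seen).

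Of 21 measured histone chaperones and carriers, 13 were called higher and 2 lower, with a median of 0.54. *Asf1b*, which hands new H3 and H4 to the assembly factors, rose by 2.76 (SE 0.17, adjusted p = 2.61e-10, limma), and *Mcm2*, *Mms22l* and *Nasp* by 1.49, 1.26 and 1.05. The 2 called lower were *Nap1l1* and *Nap1l4*, carriers of H2A and H2B, with differences of -0.34 and -0.27 (named after their values were seen). Of 9 measured histone variants made outside this rule, 5 were called higher and 0 lower, with a median of 0.39. *H2ax*, the H2A variant marked at DNA breaks, rose by 1.62, the centromere histone *Cenpa* by 1.07, and *H2az1* and *H2az2* by 0.64 and 0.51. *H3f3a*, which encodes the H3.3 used outside S phase, had a difference of 0.04 (adjusted p = 0.677, limma).

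Marker lists of other cells were also read between the fractions, where 18.6% of all genes were called higher and 18.7% lower in TM+ DCs. Of 15 granulocyte and granule genes 10 were called higher and 1 lower in TM+ DCs, with *S100a8* at 2.15 and *Ltf* at 1.92, and their summed intensity ranged over 23300 to 27900 in TM+ and 17600 to 27600 in TM- DCs with sTM, and over 22300 to 34500 and 21200 to 28600 without. Of 4 eosinophil genes 3 were called higher, *Epx* by 2.11 among them, with sums of 671 to 2590 in TM+ and 327 to 733 in TM- DCs with sTM, and 1830 to 3920 and 476 to 642 without. Of 7 stem and progenitor genes 3 were called higher, *Myb* and *Cd34* among them, and *Kit* was lower. The median difference of this list was -0.13, against -0.08 over all genes. Its sums were 1160 to 3790 in TM+ and 933 to 2650 in TM- DCs with sTM, and 2000 to 5230 and 1520 to 1630 without. Within treated cultures of experiments 2, 3 and 4 the granulocyte median was 0.36, 0.09 and 0.89, and within untreated cultures of experiments 3 and 4 it was 0.66 and 0.98. The eosinophil median was 2.27, -0.35 and 1.36 in the treated and 1.37 and 2.73 in the untreated cultures. In 4 of the 5 combinations both lists were thus higher in TM+ DCs together with the histone genes, and in treated cultures of experiment 3 the eosinophil genes were not. Of 8 mast cell and basophil genes 2 were called lower and 0 higher, of 8 monocyte and macrophage genes 5 were higher and 1 lower, of 5 erythroid genes 0 were higher and 1 lower, and of 10 T, B and NK cell genes 0 were called. The part of such cells in the histone difference was not tested.

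**Figure D4:**
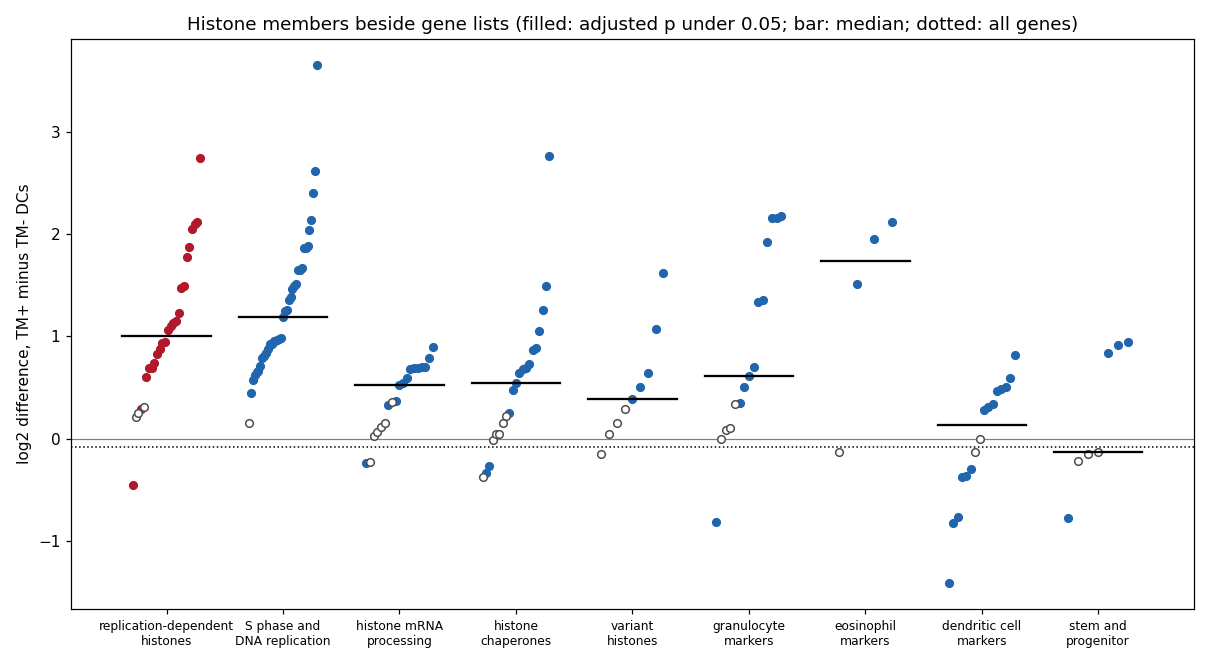
Log2 difference of TM+ minus TM- DCs (y axis) for the members and for genes of 8 lists (x axis), with filled points at an adjusted p under 0.05, a bar at each median and a dotted line at the median of all genes, -0.08. The histone median of 1.00 lies below that of the S phase genes (1.19) and above those of the processing genes (0.52) and chaperones (0.54).

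Treatment with sTM moved few members. In the mean of TM+ and TM- DCs, 0 of 26 were called higher and 0 lower by limma, where 0.0100% of all genes were higher and 0.00502% lower. An unadjusted p under 0.05 was found for 2 members and for 1607 of all 19938 genes. With array weights, which count noisy arrays less, 9 members were called higher and 0 lower, where that fit called 4.25% of all genes higher and 4.98% lower. The members' median was 0.07 and that of all genes 0.00. The 3 smallest p belonged to *H2bc4* (0.62, SE 0.16, adjusted p = 0.164), *H1f2* (0.43, SE 0.20, adjusted p = 0.573) and *H4c8* (0.23, SE 0.15, adjusted p = 0.772), all in limma. Without the second TM- array with sTM of experiment 3, which read 9.89, *H2bc4* was called (0.77, adjusted p = 0.0275, limma).

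Within TM+ DCs, *H2bc4* was the 1 member called higher with sTM and 0 were called lower, where 0.381% of all genes were higher and 0.471% lower. Its TM+ arrays of experiments 3 and 4 read 10.94, 11.03, 11.32 and 11.26 with sTM and 9.84, 10.02, 9.78 and 10.02 without. Within each of these experiments both treated arrays lay above both untreated ones, as they did for 20.8% and 23.9% of all genes. With experiment 2 included the groups overlapped slightly, with a lowest treated value of 10.017 and a highest untreated value of 10.025. The difference over all these arrays was 1.04 (SE 0.22, adjusted p = 0.0302, limma). Experiment 2 had sTM-treated TM+ DCs only, at 10.02 and 10.45, and without that experiment the adjusted p was 0.0506 with a difference of 1.22. Without experiment 4 the difference was 0.75 (adjusted p = 0.348, limma), and the gene was not called without any 1 of 5 TM+ arrays: arrays 1 and 2 with sTM of experiment 3 (adjusted p = 0.0863 and 0.105, limma), array 1 without sTM of experiment 3 (0.067), and arrays 1 and 2 without sTM of experiment 4 (0.103 and 0.0924). *H1f2* and *H1f1* followed with 0.60 (SE 0.27, adjusted p = 0.437) and 0.44 (SE 0.30, adjusted p = 0.72, limma).

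Within TM- DCs 0 members and 0 genes in all were called in either direction (0% higher and 0% lower). An unadjusted p under 0.05 was found for 0 members and for 722 of all 19938 genes. Array weights called 1 member higher (*H1f2*), where they called 2.22% of all genes higher. The smallest p were those of *H4c3* (0.39, SE 0.19), *H4c6* (0.43, SE 0.22) and *H2bc18* (0.50, SE 0.27), each with an adjusted p of 0.998 in limma. *H4c3* read 6.86, 7.14 and 7.28 with sTM (lowest, median and highest) and 6.47, 6.73, 6.99 and 7.11 without. *H2bc18* read 7.25, 7.63 and 8.20 with sTM and 7.07, 7.09, 7.38 and 7.54 without. Both pairs of groups overlapped only across experiments, and experiment 2 had no untreated TM- arrays. Within experiment 3 and within experiment 4, both treated arrays of each gene lay above both untreated ones. The same held for 23.0% and 23.4% of all genes in these experiments.

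The sTM effect in TM+ minus that in TM- DCs, the interaction, was called for 0 of 26 members, where 0% of all genes were called with a positive and 0.0100% with a negative value. Of the members 1 had an unadjusted p under 0.05, as did 1227 of all 19938 genes. Array weights called 1 member, where they called 0.512% of all genes with a positive value. *H2bc4* had the smallest p, with an interaction of 0.83 (SE 0.30, adjusted p = 0.577, limma), and *H4c3* and *H4c4* followed with -0.46 (SE 0.26, adjusted p = 0.869) and -0.59 (SE 0.38, adjusted p = 0.895). The member called with array weights was *H2bc4* too (0.93, adjusted p = 0.00572, limma), so whether its sTM difference was called larger in TM+ than in TM- DCs depended on the weights.

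Unsorted DCs showed no called change with sTM in a fit that did not pair arrays by number. Of 26 members 0 were called, where 0% of all genes were called higher and 0% lower. An unadjusted p under 0.05 was found for 2 members and for 940 of all 19938 genes. Array weights called 0 members, where they called 0% of all genes higher and 0.0201% lower. The median difference was 0.21, with 23 of 26 above 0, and 0.01 over all genes. The smallest p belonged to *H2bc9* (0.42, SE 0.15, adjusted p = 0.936), *H4c8* (0.29, SE 0.11, adjusted p = 0.936) and *H2bc4* (-0.38, SE 0.19, adjusted p = 0.999, limma). *H2bc4* had a lower mean in treated than in untreated cultures in each of experiments 1, 2 and 3, by -0.44, -0.17 and -0.48.

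The genes with the highest mean of each class read as follows in single arrays of unsorted DCs. *H1f2* read 10.62, 10.60, 10.16 and 9.91 in experiment 1, 9.54 and 9.65 in experiment 2 and 11.34 and 11 in experiment 3 with sTM, and 10.44, 10.46, 10.24 and 10.45, then 9.56 and 10.16, then 11.35 and 11.44 without. *H2ac15* read 10.26, 10.27, 8.69 and 8.66, then 9.44 and 9.31, then 10.52 and 10.74 with sTM, and 10.09, 9.72, 9.08 and 9.22, then 9.14 and 9.08, then 9.97 and 9.84 without. Both treated *H1f2* arrays of experiment 3 lay below the untreated ones, and those of experiments 1 and 2 overlapped with them. Both treated *H2ac15* arrays lay above the untreated ones in experiment 2 and in experiment 3, and those of experiment 1 overlapped. *H2bc4* read 9.26, 8.90, 9.34 and 10.17, then 10.12 and 10.24, then 9.86 and 9.56 with sTM, and 9.73, 9.39, 9.92 and 10.41, then 10.87 and 9.83, then 10.36 and 10.01 without. Here the treated arrays of experiment 3 lay below the untreated ones and the rest overlapped. *H3c4* read 6.94, 6.70, 6.47 and 6.09, then 6.11 and 6.45, then 6.39 and 6.42 with sTM, and 6.73, 6.60, 6.43 and 6.25, then 6.21 and 6.16, then 6.46 and 6.30 without. *H4c4* read 11.52, 11.56, 9.32 and 9.49, then 11.31 and 11.10, then 12.79 and 13 with sTM, and 11.03, 10.92, 9.58 and 10.09, then 10.95 and 10.77, then 12.66 and 12.44 without. The *H4c4* arrays of experiment 2 and of experiment 3 were higher with sTM, and those of experiment 1 overlapped.

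In experiment 1 the arrays numbered 1 and 2 stood apart from those numbered 3 and 4 in both kinds of culture, a split that was seen in the data and that the labels do not explain. The members' median was 0.67 higher in arrays 1 and 2, with 23 of 26 above 0, while that of all genes was -0.12. *H1f5* read 11.97 and 11.91 with sTM and 10.98 and 11.08 without in arrays 1 and 2, against 8.39 and 8.02 with sTM and 8.21 and 8.25 without in arrays 3 and 4. The sTM minus untreated median was 0.54 in arrays 1 and 2 and -0.04 in arrays 3 and 4, with 24 and 12 of 26 members above 0, and the S phase genes moved alike, with medians of 0.58 and 0.03. Granulocyte genes moved with this split as well, with a median 0.78 higher in arrays 1 and 2 (15 of 15 above 0) and an sTM minus untreated median of 0.73 in arrays 1 and 2 and 0.10 in arrays 3 and 4. The eosinophil median was 2.11 higher in arrays 1 and 2, and the part of such cells in the histone values was not tested.

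Unsorted DCs lay near TM- DCs in histone level. With sTM the members' median of unsorted minus TM+ DCs was -0.86 in experiment 2 and -0.53 in experiment 3, while that of unsorted minus TM- DCs was 0.02 and 0.17. In untreated cultures of experiment 3 the 2 medians were -0.67 and 0.08. These differences rest on 2 arrays of each kind and were not tested.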

How the data were processed

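The authors corrected, normalized and summarized the probes of each array with RMA, and the deposited values are intensity on a linear scale, 1 per transcript cluster. The sources used here do not state if all arrays entered 1 normalization, and no detection calls were used. The log2 of each deposited intensity was taken with no added constant, filter or scaling. Symbols came from the platform annotation, in which 21789 of 35556 clusters have 1 symbol, 1621 several and 12146 none. Each of 19938 symbols was represented by its cluster with the highest mean over 36 arrays, and every histone member had only 1. RefSeq tables of GRCm38.p6 gave spans and promoters.

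Sorted arrays (20) were fitted together in limma 3.58.1 (statmod 1.5.0, R 4.3.3) with sorting, treatment and their interaction, and experiment as a random block. Unsorted arrays (16) were fitted alone. P-values were adjusted over all genes by the Benjamini-Hochberg method, and each fit was first tested on simulated data. The number of arrays limits the precision. Tables and figures used Python 3.11.15, pandas 2.3.3 and matplotlib 3.10.9.

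The members and gene lists were chosen with earlier results of these data known, as was the rule for the genes described: per class the highest mean, the largest and the smallest sorting difference, members not called higher, the 3 smallest p for each treatment comparison and the interaction, and, per gene list of the histone pathway, the 4 largest called differences with *Slbp*, *Npat* and *Thbd*. Other named genes of the lists were added after their values were seen. Alternatives were other experiment terms and blocks, dropping dim genes (under the 25th percentile), centring and quantile normalization, a trended robust moderation, array weights, other histone clusters, and leaving out each array and experiment.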

Additional observations from a re-analysis of the deposited data

Results flagged for a closer look

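Single arrays stood apart from the rest of their group in 4 of 114 sets of values (19 genes in 6 groups). About 1 in 20 groups would be picked out by chance at this threshold if the arrays of a group were independent draws from 1 normal distribution. Each group pools several experiments, so that rate need not hold here. For *H3c7* in TM- DCs with sTM, the array 2-1 (experiment 2, array 1) read 5.48, against 4.60 for the next, and the gap was 0.901 of the range. For *H1f5* in TM- DCs of untreated cultures, the array 4-2 read 8.81 against 8.22, a gap of 0.830 of the range. For *H4c8* in TM- DCs with sTM, the array 3-1 was lowest at 6.22 against 6.49, a gap of 0.649 of the range. For *H2ac8* in unsorted DCs with sTM, the array 2-2 read 5.29 against 4.25, a gap of 0.738 of the range.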

How the results depend on the processing

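The TM+ against TM- count of 22 members called higher stayed between 20 and 23 under the other fits and arrays left out. It was 48 of 52 once rows naming several histones were added, and those rows are not independent readings. The 1 lower call (*H2bc4*) became 0 with no experiment term, without experiment 2 and without experiment 4, and was 0 to 1 with single arrays left out. In untreated cultures, leaving out experiment 4 gave 11 higher and 0 lower, and no experiment term gave 0 lower. For sTM in the mean of both fractions, members called higher were 9 with array weights, 2 with culture as block (chosen after seeing the data), 1 without experiment 4, and 0 to 1 with single arrays left out. Within TM+ DCs they were 3 with array weights (where 2.52% of all genes were), 2 without experiment 4, 0 without experiment 2 and with no experiment term, and 0 to 1 with single arrays left out. Without experiment 3, 2 were lower. *H3c15* was called higher without experiment 4 (1.17, adjusted p = 0.00459, limma) and lower without experiment 3 (-1.05, adjusted p = 0.0133). Its sTM difference in TM+ DCs was 1.28 in experiment 3 and -1.05 in experiment 4. The shares of all genes in these fits without an experiment are not given here. Array weights also called 1 member within TM- DCs and 1 for the interaction. The difference of *H4c9* turned to -0.047 with array weights (adjusted p = 0.708). Of 573 repeats of single members' differences, 560 kept direction and call. The cause of these changes was not tested.

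Arrays of the same number in 1 experiment deviated together only in part (correlations of -0.249 to 0.403 in sorted arrays), and the main fits did not pair arrays by number. With the replicate block the sorting calls were 23 higher and 1 lower. In experiment 1 the correlations were 0.564 to 0.746, a pairing that the main fit of unsorted arrays left out. With the replicate block, which groups arrays by number, the unsorted sTM difference of *H2bc4* had an SE of 0.15 in place of 0.19. Its adjusted p was 0.376 (limma), and it was not called. Without dim genes 23 members were tested, 20 of them higher. Probes shared between near-identical genes, 2 arrays per group and experiment, and values with no detection call limit these results.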
